A study of Mus musculus with 4 samples.

Results

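Amino acid transporters were examined across clusters of hematopoietic stem cells (HSC) and the cells sorted with them from mouse bone marrow. Members were taken by name, as every gene symbol in the deposited tables that begins with Slc1a, Slc3a, Slc6a, Slc7a, Slc36a, Slc38a or Slc43a followed by a number. The rule took 53 of 20062 genes. Of these, 50 are carriers and 3 (Slc7a6os, Slc36a1os and Slc36a3os) are named for lying on the strand opposite a carrier gene, so they are described apart. Carriers at or above the median mean expression of all genes, 19 of the 50, are called expressed carriers, and the other 31 are called weak. Just inside the median of -4.29 (log2 mean expression) was Slc36a1 at -3.88, and just outside were Slc36a4 at -4.32 and Slc38a7 at -4.39.

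The study profiled 4 samples of purified HSC, 2 labelled young and 2 labelled old, isolated at steady state. All carry the Gfp-Lc3 transgene, in which GFP tags LC3 and so marks autophagosomes, and no group lacks it. Its promoter was not stated in the labels. The deposited tables compare 7 clusters of cells, c1 to c7, each with the cells outside it, and c1 with c2. They hold no sample, age or GFP-LC3 column, so young and old cells were not compared here, and none of the values has a replicate, a standard error or a known depth.

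Solute carriers move amino acids across the plasma membrane and out of the lysosome. The Slc7 light chains reach the plasma membrane bound to a Slc3 heavy chain, and the light chain LAT1 (Slc7a5) imports leucine and other large neutral amino acids in exchange for glutamine. Intracellular amino acids activate the kinase complex mTORC1 at the lysosome, where SLC38A9 reports arginine, and active mTORC1 promotes protein synthesis and restrains autophagy. HSC are known for a low rate of protein synthesis, and autophagy returns amino acids from degraded protein through the lysosome. When amino acids are short, the factor ATF4 is made and turns on carriers and synthesis enzymes.

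Promoter sequences are shown for 5 carriers that differed between clusters and hold a match to a motif of amino acid or lysosomal gene control. Slc1a6 and Slc38a5 also differed and hold a match, and are not shown. Windows ran from 250 bases before to 50 bases after each start site, from RefSeq on GRCm38.p6, and were matched for 34 of the 50 carriers and 12 of the 19 expressed ones. The motifs, searched on both strands, were TGATGNAA, the ATF4 and C/EBP response element, and CACGTG, the E-box bound by MYC and by TFEB-family factors. No match of one motif shared bases with a match of the other in the windows shown. Capitals mark the matches, and each sequence reads 5′ to 3′ on the strand of its gene.

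Slc43a1 (chr2:84840073-84840372, plus strand): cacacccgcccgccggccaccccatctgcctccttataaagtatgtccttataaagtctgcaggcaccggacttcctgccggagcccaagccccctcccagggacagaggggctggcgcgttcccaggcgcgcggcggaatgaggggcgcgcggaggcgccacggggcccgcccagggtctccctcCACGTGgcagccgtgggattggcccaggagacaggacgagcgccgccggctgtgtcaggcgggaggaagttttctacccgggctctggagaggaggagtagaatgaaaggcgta
Slc36a1 (chr11:55204090-55204389, plus strand): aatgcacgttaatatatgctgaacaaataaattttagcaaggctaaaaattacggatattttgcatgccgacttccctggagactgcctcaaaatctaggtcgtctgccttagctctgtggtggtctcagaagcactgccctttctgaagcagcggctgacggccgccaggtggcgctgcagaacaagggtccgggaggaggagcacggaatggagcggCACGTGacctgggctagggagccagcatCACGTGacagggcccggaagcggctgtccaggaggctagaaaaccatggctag
Slc38a7 (chr8:95853442-95853741, minus strand): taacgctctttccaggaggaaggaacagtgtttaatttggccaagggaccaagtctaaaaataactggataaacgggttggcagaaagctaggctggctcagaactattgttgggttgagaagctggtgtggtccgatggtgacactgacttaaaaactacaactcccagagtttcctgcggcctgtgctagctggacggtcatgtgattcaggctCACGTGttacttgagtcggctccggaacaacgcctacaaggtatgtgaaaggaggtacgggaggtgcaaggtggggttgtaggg
Slc7a7 (chr14:54417895-54418194, minus strand): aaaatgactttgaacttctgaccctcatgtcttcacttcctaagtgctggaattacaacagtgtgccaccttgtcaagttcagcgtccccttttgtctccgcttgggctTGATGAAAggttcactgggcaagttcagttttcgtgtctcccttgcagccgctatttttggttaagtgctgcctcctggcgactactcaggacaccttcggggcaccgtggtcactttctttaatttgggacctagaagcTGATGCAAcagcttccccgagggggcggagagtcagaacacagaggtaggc
Slc7a11 (chr3:50443564-50443863, minus strand): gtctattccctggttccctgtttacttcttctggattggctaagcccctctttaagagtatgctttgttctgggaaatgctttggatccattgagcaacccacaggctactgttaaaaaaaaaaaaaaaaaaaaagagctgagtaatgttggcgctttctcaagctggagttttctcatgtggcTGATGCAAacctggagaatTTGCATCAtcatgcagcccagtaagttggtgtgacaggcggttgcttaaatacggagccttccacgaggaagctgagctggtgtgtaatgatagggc

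Slc36a1 held CACGTG at 2 places, with first bases at -31 and -3 from the start site, and Slc43a1 and Slc38a7 held it once, at -64 and -34. Slc7a11 held TGATGNAA at -66 and at -47, and the Slc7a7 window shown held it at -141 and -1. Across all 32851 promoter windows, 3.97% held TGATGNAA and 7.15% held CACGTG. Of the 50 windows of carriers, 4 held TGATGNAA (8.0%) and 8 held CACGTG (16.0%). Those 4 include a second window of Slc7a7 that overlaps the one shown. A match is a run of letters and not a measured binding site.

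The clusters were checked against marker genes. In c1 and in c2, 6 of 8 stem cell markers were called higher in the authors' deposited tables, and all 4 S phase markers and all 4 G2/M markers were called lower in both. The 4 S phase markers were higher in c3 and in c4, the 4 G2/M markers were higher in c4, and erythroid markers were higher for 6 of 6 in c3 and 5 of 6 in c4. Neutrophil markers were higher for 6 of 6 in c5 and in c6, monocyte markers for 4 of 4 in c5, and B lineage markers for 5 of 6 in c7, while all 8 stem cell markers were at the lower limit in c6. In c3 and in c4, 7 of 8 stem cell markers were called lower and none higher. Multipotent progenitor markers were higher for 3 of 3 in c3 and 2 of 3 in c2, where 1 stem cell marker was lower. Thus c5, c6 and c7 go against the label of purified stem cells, and the stem cell markers of c3 and c4 do so in part. From the tables the clusters were estimated to hold 40.7%, 34.0%, 12.0%, 10.2%, 1.68%, 0.984% and 0.350% of the cells, from c1 to c7. The labels do not say how they were drawn, and if the same expression values drew them, the fold changes are not independent of that choice. Markers of sex differed between clusters. Xist was at -4 in c1 and c6, 3.22 in c2 and -2.30 in c5, all called. The Y-linked Eif2s3y was at 0.87 in c1, -0.79 in c2 and -0.29 in c3, all called. In these clusters a difference in the mice that gave the cells and a difference in cell state cannot be told apart.

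All 19 expressed carriers were called in at least 1 of the 7 cluster tables, where a gene is called when the authors' adjusted p-value is under 0.05. The share of all genes at or above the expression median called in any table was not counted. In c6 alone, 69.0% of those genes were called lower and 7.53% higher, so this count is not read as a result about carriers. In c1, 13 of the 19 were called lower and 3 higher, beside 47.7% lower and 18.1% higher among all 10027 genes at or above that median. The carriers' share was 68.4% lower, with a median log2 fold change of -0.28, beside -0.12 for those genes. In c2, 6 were higher and 5 lower (background 27.1% and 31.5%), and in c3, 8 were higher and 3 lower (32.5% and 17.1%). In c4, 6 were higher and 3 lower (44.2% and 16.7%), and in c5, 2 were higher and 3 lower (10.5% and 18.5%). In c6, 13 were lower and 1 higher (69.0% and 7.53%), and in c7, 1 was lower and none higher (10.3% and 1.45%). Set against these backgrounds, the carriers' shares in c5 and c6 lay close to those of other genes, and c4 had a lower share of higher carriers (31.6%) than of higher genes overall. The tables share cells, since each cluster is among the cells the others were compared with.

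**Figure D1:**
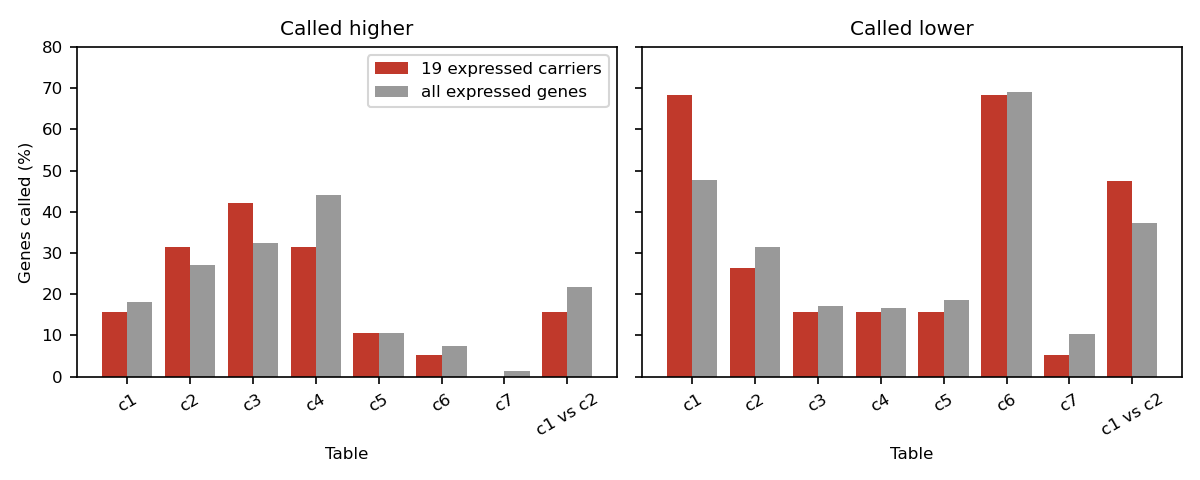
Percentage of the 19 expressed carriers (red) and of all genes at or above the expression median (grey) called higher (left) and lower (right) at an adjusted p-value under 0.05 in each deposited table. The red bar stands above the grey one for lower calls in c1 (68.4% against 47.7%) and below it for higher calls in c4 (31.6% against 44.2%).

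**Figure D2:**
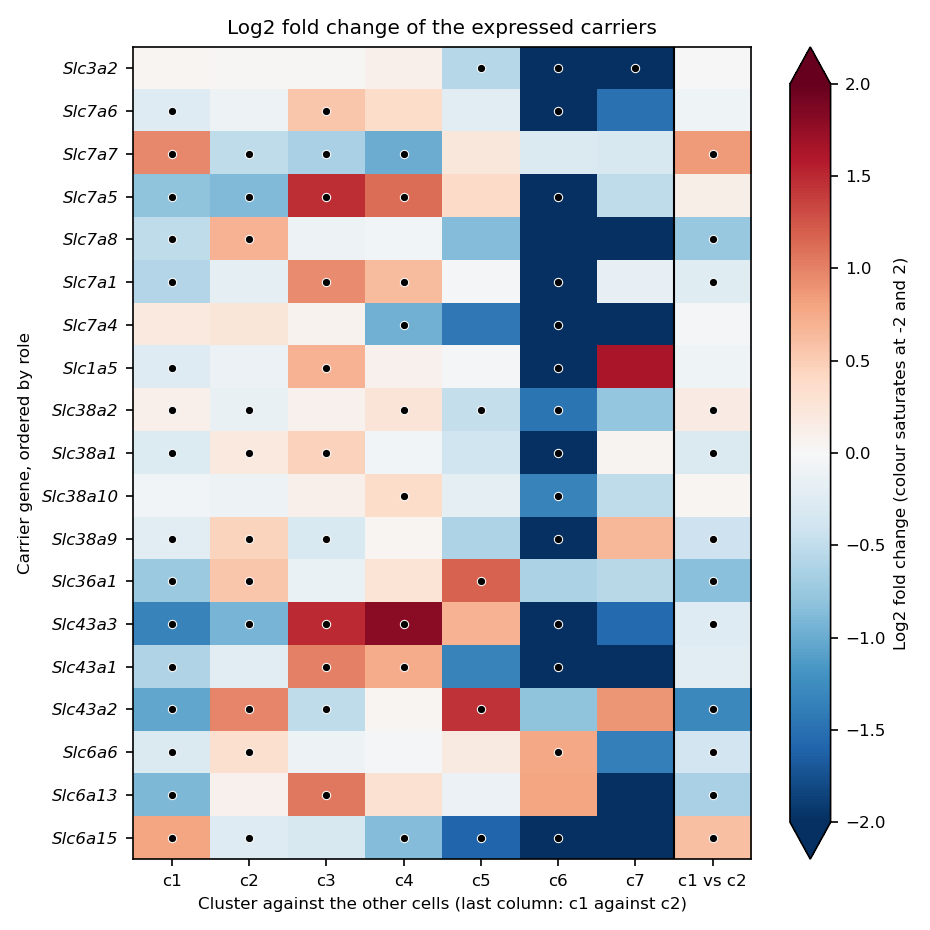
Log2 fold change (colour, saturating at -2 and 2) of each expressed carrier in the 7 cluster tables and in c1 against c2. Dots mark genes called at an adjusted p-value under 0.05. Slc43a3 and Slc7a5 are red in c3 and c4 and blue in c1 and c2, Slc7a7 is reddest in c1, and Slc43a2 is red in c2, c5 and c7, where the c7 value was not called.

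Among the heteromeric carriers, the light chain gene Slc7a5 was high in c3 and c4 and low in c1 and c2, while its heavy chain gene Slc3a2 differed little. The estimated mean level of Slc7a5, per 10000 of a cell's total expression, was 0.0492 in c1, 0.0454 in c2, 0.163 in c3, 0.137 in c4, 0.0916 in c5, 0.0137 in c6 and 0.0497 in c7. It was thus high in c3 and c4, and the highest of the first 4 clusters was 3.58 times the lowest. In the authors' deposited tables the log2 fold change of Slc7a5 was 1.48 in c3 (adjusted p = 4.47e-18), 1.11 in c4 (1.5e-09), -0.80 in c1 (2.04e-11) and -0.89 in c2 (6.99e-11). The level of Slc3a2, the CD98 heavy chain shared by several light chains, was 0.773 in c1, 0.770 in c2, 0.771 in c3 and 0.809 in c4, a range of 1.05 times. Slc3a2 was called in none of those 4 tables, with adjusted p-values from 0.289 to 0.818. It was lower in c5 at -0.57, in c6 at -2.19 and in c7 at -2.12 in the authors' deposited tables, and it was the 1 carrier called in c7 (adjusted p = 0.0109). Slc7a5 lies on GRCm38 chromosome 8 from 121881150 to 121907694 (minus strand), and Slc3a2 on chromosome 19 from 8706882 to 8723369 (minus strand).

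Of the other light chains, Slc7a7 and Slc7a8 had opposite orders in c1 and c2. Slc7a7, which encodes y+LAT1, an exchanger that exports cationic for neutral amino acids, was higher in c1 at 0.96 (adjusted p = 4.2e-17) and lower in c2 at -0.51, c3 at -0.65 and c4 at -0.99 in the authors' deposited tables. Its estimated level was 0.110 in c1, 0.0609 in c2, 0.0519 in c3 and 0.0414 in c4. Thus c1 stood above the other 3, by 2.65 times over c4. Slc7a7 overlaps Oxa1l on the opposite strand, and it is not stated whether counting used strand, so their reads cannot be told apart. Oxa1l itself stood at -0.16 in c1 in the authors' deposited table. Slc7a8, which encodes the neutral exchanger LAT2, had the reverse order, at 0.70 in c2 (adjusted p = 1.87e-07) and -0.52 in c1 in the authors' deposited tables. Slc7a6, for the related y+LAT2, was higher in c3 at 0.56 and lower in c1 at -0.26 and in c6, where it was at the table limit of -4 (at least 16-fold). The opposite-strand gene Slc7a6os, which does not encode a carrier, was at -0.28 in c1, 0.24 in c2 and -3.50 in c6, all called, in the authors' deposited tables. The annotated Slc7a6 and Slc7a6os genes did not overlap.

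Slc7a1 and Slc1a5 were high in c3, and Slc7a4 was not. Slc7a1, the CAT1 importer of arginine and lysine, had an estimated level of 0.107 in c1, 0.126 in c2, 0.241 in c3, 0.204 in c4, 0.135 in c5, at most 0.00875 in c6 and 0.124 in c7. In the authors' deposited tables it was higher in c3 at 0.95 (adjusted p = 7.33e-13) and c4 at 0.63, and lower in c1 at -0.59. Slc7a4, a family member whose substrate is less well settled, was at -0.96 in c4 (1.59e-05) and -2.88 in c6 in the authors' deposited tables and was not called in the other 5. It overlaps P2rx6 on the opposite strand, which was at -3.10 in c4, also called. Slc1a5, which encodes ASCT2, an exchanger of glutamine and other small neutral amino acids, was higher in c3 at 0.69 (adjusted p = 1.26e-14) and lower in c1 at -0.26 and c6 at -3.60 in the authors' deposited tables. Cells of the clusters held Slc1a5 at an estimated level of 0.302 in c1, 0.321 in c2, 0.507 in c3, 0.356 in c4, 0.334 in c5, 0.0281 in c6 and 1.04 in c7. The c7 level was the highest, but its log2 fold change of 1.63 in the authors' deposited table was not called (adjusted p = 0.110). Slc1a5 was called higher in c3 alone, and its c4 value of 0.08 in the authors' deposited table was not called (adjusted p = 0.637). The difference between c3 and c4 was not tested.

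In the Slc43 family, Slc43a3 had the widest range among c1 to c4 of the 19 expressed carriers. Slc43a3, whose product carries purine nucleobases rather than amino acids, was estimated at 0.101 in c1, 0.120 in c2, 0.446 in c3, 0.537 in c4, 0.308 in c5, 0.0311 in c6 and 0.0654 in c7, a range of 5.33 times among the first 4. It was higher in c3 at 1.50 (adjusted p = 2.86e-45) and c4 at 1.81 (1.01e-64), and lower in c1 at -1.34 (1.22e-66) and c2 at -0.93 in the authors' deposited tables. Slc43a1, which encodes LAT3, a facilitator of leucine and other large neutral amino acids, was higher in c3 at 1.01 and c4 at 0.75 and lower in c1 at -0.59 in the authors' deposited tables. Slc43a1 was estimated at 0.0900 in c1, 0.106 in c2, 0.210 in c3 and 0.184 in c4. Slc43a2, which encodes the related LAT4, was higher in c2 at 0.98 (adjusted p = 1.64e-15) and in c5 at 1.45 (0.00559), and lower in c1 at -1.05 and c3 at -0.51 in the authors' deposited tables. The estimated level of Slc43a2 was 0.0556 in c1, 0.134 in c2, 0.0659 in c3, 0.0926 in c4 and 0.240 in c5. Slc43a2 spans chromosome 11 from 75531694 to 75577575 and overlaps the antisense gene Gm45606, which stood at 1.16 in c2 and -1.02 in c1, so without knowledge of strand the reads of the pair cannot be told apart.

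In c3 and c4, where Slc7a5, Slc43a3, Slc43a1 and Slc7a1 were high, S phase markers and most erythroid markers were high as well. The summed level of the 4 S phase markers was 0.971 in c1, 1.09 in c2, 7.45 in c3 and 7.20 in c4, and that of the 6 erythroid markers was 6.06, 7.56, 8.45 and 11.0. None of these markers was at the lower limit in c1 to c4. The median log2 fold change of the 6 erythroid markers was 1.56 in c3 and 0.94 in c4, so their sum does not stand for each of them. In c5, all 4 G2/M markers were called higher, with a summed level of 9.72 beside 4.98 in c3. Slc7a5, Slc43a3, Slc43a1 and Slc7a1 were not called in c5. The part of the cell cycle and of erythroid cells in the carriers' values was not tested.

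**Figure D3:**
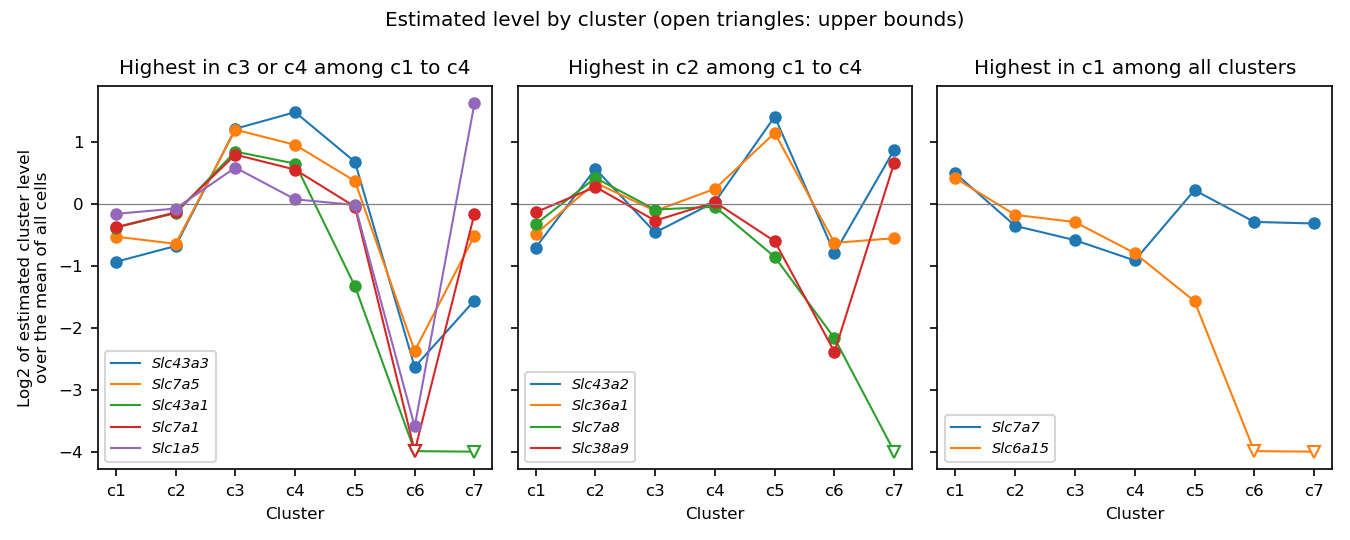
Estimated level of 11 expressed carriers in clusters c1 to c7, as log2 of the cluster level over the mean of all cells (0, grey line), in 3 panels by the cluster among c1 to c4 where the gene was highest. Open triangles are upper bounds, from fold changes at the limit. Slc7a5 and Slc43a3 stand above the grey line in c3, c4 and c5, Slc43a2 and Slc36a1 stand above it in c2 and higher still in c5, and Slc6a15 does so in c1 alone.

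Of the expressed Slc38 carriers outside the lysosome, Slc38a2 had the narrowest range among the first 4 clusters and Slc38a1 was highest in c3. Slc38a2, which encodes the glutamine and alanine importer SNAT2, was estimated at 2.50 in c1, 2.23 in c2, 2.52 in c3 and 2.80 in c4, a range of 1.25 times. In the authors' deposited tables it was called higher in c1 at 0.10 and c4 at 0.25 and lower in c2 at -0.15, c5 at -0.48 and c6 at -1.45. Slc38a1, the related SNAT1, was higher in c3 at 0.46 (adjusted p = 7.02e-13) and c2 at 0.19, and lower in c1 at -0.28 and c6 at the limit of -4 in the authors' deposited tables. For Slc38a1 the levels were 0.754 in c1, 0.924 in c2, 1.11 in c3 and 0.822 in c4. Slc38a10, a family member found within the cell, was higher in c4 at 0.37 and lower in c6 at -1.33 and was called in no other table.

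Of the lysosomal carriers, Slc38a9, Slc36a1 and Slc38a7 were called higher in c2, and Slc36a4 was not. The weak Slc36a2, counted with this group, was called in no table. Among all genes, 27.1% of those at or above the expression median and 4.59% of those below it were called higher in c2. Slc38a9, the arginine sensor of the mTORC1 pathway, was at 0.44 in c2 (adjusted p = 3.17e-13), -0.22 in c1, -0.30 in c3 and -2.40 in c6, all called, in the authors' deposited tables. The level of Slc38a9 was estimated at 0.349 in c1, 0.464 in c2, 0.318 in c3, 0.392 in c4, 0.253 in c5, 0.0734 in c6 and 0.608 in c7. Its c7 value of 0.67 in the authors' deposited table was not called (adjusted p = 0.832). Slc36a1, which encodes PAT1, a proton-coupled exporter of small amino acids, was higher in c2 at 0.56 (adjusted p = 4.99e-05) and in c5 at 1.17 (0.0377), and lower in c1 at -0.75 in the authors' deposited tables. Slc36a1 was estimated at 0.0485 in c1, 0.0862 in c2, 0.0629 in c3, 0.0805 in c4 and 0.150 in c5. The weak Slc38a7, a lysosomal glutamine carrier, was higher in c2 at 0.68 and lower in c3 at -0.75 and c4 at -1.15 in the authors' deposited tables. The weak Slc36a4, a further proton-coupled carrier, did not share this order, at -0.54 in c1 and 0.58 in c3, both called, and 0.12 in c2, not called. CACGTG stood in the promoter windows of Slc36a1 and Slc38a7 shown above. It stood also in windows of Slc1a6, Slc38a5, Slc43a1, Slc6a16, Slc6a3 and Slc7a14, which are not among the lysosomal carriers. Of 21 windows of expressed carriers, 2 held it (9.5%), beside 7.15% of all windows. Its part in the carriers' values was not tested. Slc38a9 lies on chromosome 13 from 112660751 to 112738749 (plus strand) and Slc36a1 on chromosome 11 from 55204350 to 55236330 (plus strand).

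Of the Slc6 family, 3 of 15 carriers were expressed. Slc6a6, the taurine transporter, was higher in c2 at 0.32 (adjusted p = 1.46e-10) and in c6 at 0.78 (0.0134), and lower in c1 at -0.29 in the authors' deposited tables. It was the 1 expressed carrier called higher in c6, where 69.0% of expressed genes were called lower. Its estimated level was 0.535 in c1, 0.697 in c2, 0.571 in c3, 0.593 in c4, 0.687 in c5, 1.03 in c6 and 0.236 in c7. Slc6a13, which encodes GAT2, a carrier of GABA and taurine, was higher in c3 at 1.05 (adjusted p = 8.63e-13) and lower in c1 at -0.89, while its c6 value of 0.79 was not called (adjusted p = 0.236), in the authors' deposited tables. Slc6a15, which encodes B0AT2, a sodium-coupled importer of branched-chain amino acids and proline, was higher in c1 at 0.78 (adjusted p = 2.32e-16) and lower in c2 at -0.26, c4 at -0.86, c5 at -1.59 and c6 at the limit of -4 in the authors' deposited tables. Its estimated level was 0.143 in c1, 0.0952 in c2, 0.0879 in c3 and 0.0621 in c4.

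In c5 and c6 neutrophil markers stood far above those of the other clusters, and markers of granulocyte-monocyte progenitors did not in c6. The summed level of the 6 neutrophil markers was at least 979 in c5 and at least 1069 in c6. It was at most 32.4 in c1, 41.1 in c2, 33.6 in c3, 34.0 in c4 and at most 49.2 in c7. The 5 progenitor markers summed to at least 18.4 in c5 and to at most 1.00 in c6, beside 10.8 in c1, at most 4.89 in c2, 4.21 in c3, 2.92 in c4 and at most 0.822 in c7. Of the 5 progenitor markers, 4 were called lower and 1 higher in c1, so its sum does not stand for each of them. The part of neutrophils and of these progenitors in the carriers' values was not tested. The expressed carriers called higher in c5 were Slc43a2 and Slc36a1, and those called lower were Slc3a2, Slc38a2 and Slc6a15. In c6, Slc7a1, Slc43a1, Slc38a1, Slc7a6 and Slc6a15 were at the lower limit and Slc1a5 was at -3.60 in the authors' deposited table. The median of the 19 in c6, -2.38, lay close to that of all expressed genes, -2.24, and nothing particular to carriers was read from the low values in c6.

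The largest clusters, c1 and c2, were also compared with each other. Of the 19 expressed carriers, 3 were called higher in c1 and 9 lower, beside 21.8% higher and 37.2% lower among all genes at or above the median, with a median of -0.23 beside -0.07. Higher in c1 were Slc7a7 at 0.86 (adjusted p = 2.03e-13), Slc6a15 at 0.60 (7.43e-10) and Slc38a2 at 0.16 (3.55e-09) in the authors' deposited table. Lower in c1, and so higher in c2, were Slc43a2 at -1.28 (adjusted p = 2.97e-27), Slc36a1 at -0.83 (1.82e-10), Slc7a8 at -0.75 (1.74e-09), Slc6a13 at -0.65 (6.11e-09) and Slc38a9 at -0.42 (1.14e-13) in the authors' deposited table. Smaller differences in the same direction were -0.38 for Slc6a6, -0.30 for Slc38a1, -0.25 for Slc43a3 and -0.24 for Slc7a1 in the authors' deposited table. Slc3a2 at 0.00 and Slc7a5 at 0.11 were not called (adjusted p = 0.990 and 0.566) in the authors' deposited table, nor were Slc1a5, Slc38a10, Slc43a1, Slc7a4 and Slc7a6. The opposite-strand gene Slc7a6os was lower at -0.33. Markers of other cell types moved as well. All 3 multipotent progenitor markers were lower in c1 (median -1.59), 4 of 5 granulocyte-monocyte progenitor markers were higher (median 1.83), and all 4 G2/M markers were lower (median -0.89), while stem cell markers were 3 higher and 3 lower of 8. Against the other cells, 4 of those 5 progenitor markers were lower and 1 higher in c1 (median -2.03), and all 5 were lower in c2 (median -3.61). The part of these marker differences in the carriers' values was not tested. Markers of sex differed too. Xist, the RNA of the inactive X chromosome, was at the limit of -4 and the Y-linked Eif2s3y was at 1.03 in the same authors' deposited table, so a difference in the mice that gave each cluster and a difference in cell state cannot be told apart.

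**Figure D4:**
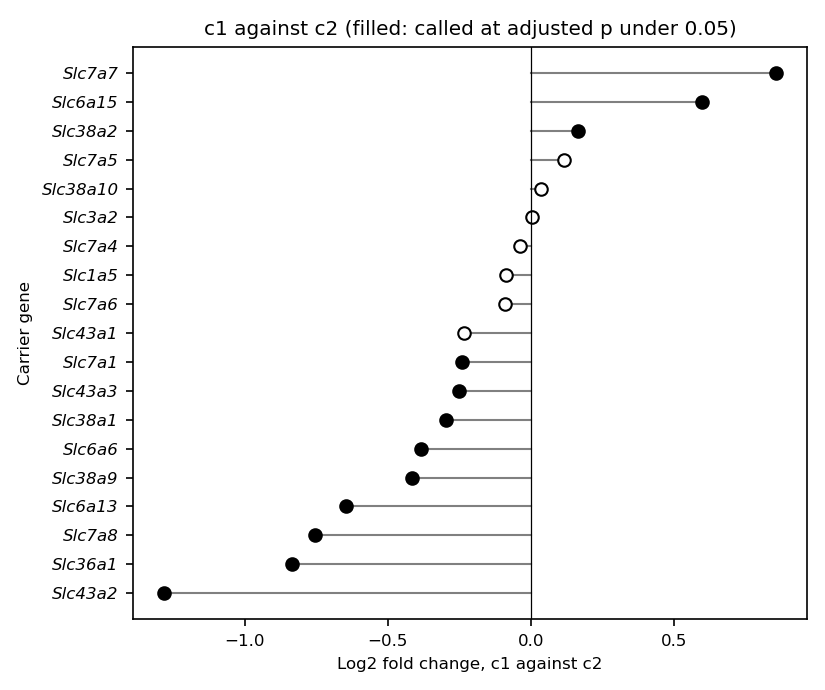
Log2 fold change of c1 against c2 for the 19 expressed carriers, ordered by value. Filled points were called at an adjusted p-value under 0.05. Slc7a7 at 0.86 is farthest to the right and Slc43a2 at -1.28 farthest to the left.

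Weak carriers were called in at least 1 table for 14 of 31, and 17 were called in none. The share of all genes below the median called in any table was not counted, so these counts have no background. In c1, 4 weak carriers were higher and 4 lower, beside 8.5% and 11.7% of genes below the median. In c2, 1 was higher and 4 lower (4.59% and 11.2%), in c3, 5 and 1 (3.72% and 3.25%), in c4, none and 2 (4.51% and 4.46%), and in c5, 1 and none (3.85% and 0.0698%). None was called in c6 (2.88% and 2.34%) or c7 (0.588% and 0.0%). Between c1 and c2, 5 were higher in c1 and 3 lower (8.99% and 6.93%). Large fold changes here rest on low levels.

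Of the weak glutamate carriers, 3 were called higher in c1. Slc1a1, which encodes EAAC1, an importer of glutamate and cysteine, was at 2.92 in c1, -2.99 in c2 and 3.55 in c1 against c2 (adjusted p = 1.06e-08) in the authors' deposited tables. Slc1a6, for the related EAAT4, was at 2.07 in c1, -1.46 in c2, -4 in c4 and 1.99 in c1 against c2, and Slc1a3, for GLAST, was at 0.84 in c1. Estimated levels of Slc1a1 were 0.0114 in c1 and 0.000986 in c2. Slc1a2, a further glutamate carrier, was called in no table.

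The creatine carrier gene Slc6a8 was at 1.49 in c1, at the lower limit of -4 in c2 and at the upper limit of 4 in c1 against c2 (adjusted p = 2.21e-08) in the authors' deposited tables. Its estimated level was 0.00919 in c1 and at most 0.000522 in c2, and 0.00715 in c3 and 0.00792 in c4. It lies on chromosome X, as do 2 other members, Slc38a5 and Slc7a3. Slc38a5, which encodes the glutamine and glycine carrier SNAT5, was at 3.86 in c3 and -2.98 in c1, and Slc6a9, the glycine carrier GLYT1 that red cell precursors use for heme synthesis, was at 1.08 in c3 and -0.90 in c1 in the authors' deposited tables. Slc6a17, a vesicular neutral amino acid carrier of neurons, was at 1.95 in c3, -1.82 in c2 and 1.31 in c1 against c2, and Slc7a2, for the arginine importer CAT2, was at 2.31 in c3. Slc7a11, which encodes xCT, the cystine importer that feeds glutathione synthesis, was lower in c1 at -1.52. Its values of 2.61 in c5 and 3.42 in c6 were not called. Slc38a11 at -1.63 and Slc38a8 at the upper limit of 4 were called between c1 and c2, and Slc6a12, the betaine carrier gene, was at the upper limit in c5. The opposite-strand gene Slc36a3os was at the upper limit in c5 and the lower limit in c1, and Slc36a1os was called in no table. Slc6a20a and Slc6a20b are near-identical copies, neither was called, and reads could be split between them. On the opposite strand, Slc6a9 overlaps Ccdc24 and B4galt2, and Slc1a1 overlaps 4430402I18Rik. Likewise Slc7a11 overlaps Gm37854 and Slc7a2 overlaps Gm26584. Without knowledge of strand, the reads of these genes cannot be told apart.

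Other genes of amino acid handling were counted by lists, some genes in more than 1. Among all 20062 genes, 13.3% were called higher and 29.7% lower in c1, 15.9% and 21.4% in c2, 18.1% and 10.2% in c3, 24.3% and 10.6% in c4, and 15.4% and 22.0% in c1 against c2. Most list members were expressed, so each list is read by its expressed members against the expressed genes, of which 18.1% were higher and 47.7% lower in c1, 27.1% and 31.5% in c2, 32.5% and 17.1% in c3, 44.2% and 16.7% in c4, and 21.8% and 37.2% in c1 against c2. Of 20 cytosolic aminoacyl-tRNA synthetases, which load amino acids onto tRNA and were all expressed, 17 were called higher in c3 and 20 in c4, with none lower in either, and 15 were lower in c1 and 12 in c2 with none higher. Their medians were 0.40 in c3, 0.61 in c4, -0.23 in c1 and -0.22 in c2, beside 0.07, 0.19 and -0.12 for all expressed genes in c3, c4 and c1. In the authors' deposited table of c4, Aars stood at 1.23, Cars at 1.06, Mars at 0.88, Gars at 0.83 and Iars at 0.72. Between c1 and c2, 3 were lower in c1 and none higher, with a median of 0.02.

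Of 21 genes of the amino acid response and its ATF4 targets, 17 were expressed. Of those 17, 9 were higher (52.9%, beside 32.5%) and 4 lower in c3, and 8 were higher (47.1%, close to the 44.2% of expressed genes) and 4 lower in c4. The higher ones in c4 included Mthfd2 at 2.32, a mitochondrial one-carbon enzyme, and the serine synthesis genes Psat1 at 1.78 and Psph at 1.04 in the authors' deposited table. The lower ones included Trib3, a feedback inhibitor of the response, at -3.27, and the stress gene Nupr1 at -1.18. Atf4 itself was at 0.48 in c4, -0.30 in c1, 0.03 in c2 and -0.20 in c1 against c2, where all but the c2 value were called. Asns, asparagine synthetase, was higher in c1 at 0.50 and c3 at 0.70 and lower in c2 at -1.09, with 1.08 in c1 against c2, in the authors' deposited tables. Trib3 was higher in c2 at 0.83 and in c1 at 0.35. In c1, 5 of the 17 were higher and 8 lower (47.1%, close to 47.7%), and in c2 the counts were again 5 and 8 (beside 31.5% lower).

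Of 38 genes of amino acid sensing by mTORC1, 36 were expressed. Of those 36, 18 were lower in c1 (a share close to the 47.7% of expressed genes) and 4 higher, and 10 were higher in c2 (27.8%, close to 27.1%) and 8 lower, so these counts are not a result about the list. The higher genes of c2 included Sesn3 at 0.82 and Sesn1 at 0.60 in the authors' deposited table. Also higher there were Gatsl2 (Castor2, a relative of an arginine sensor) at 0.64 and Bmt2 (SAMTOR, a sensor of S-adenosylmethionine) at 0.52. The counterpart arginine sensor Gatsl3 (Castor1) was higher in c1 at 0.80 and lower in c2 at -0.43. In c1 against c2, 16 of the 36 were lower (44.4%, beside 37.2%) and 5 higher, with Sesn3 at -0.72 and Gatsl3 at 0.73 in the authors' deposited table. Mtor, the kinase, was at 0.40 in c4 and -1.99 in c6, both called, and at -0.18 in c1 and -0.01 in c2, neither called. Sesn2 was called in c6 alone, at 2.13.

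**Figure D5:**
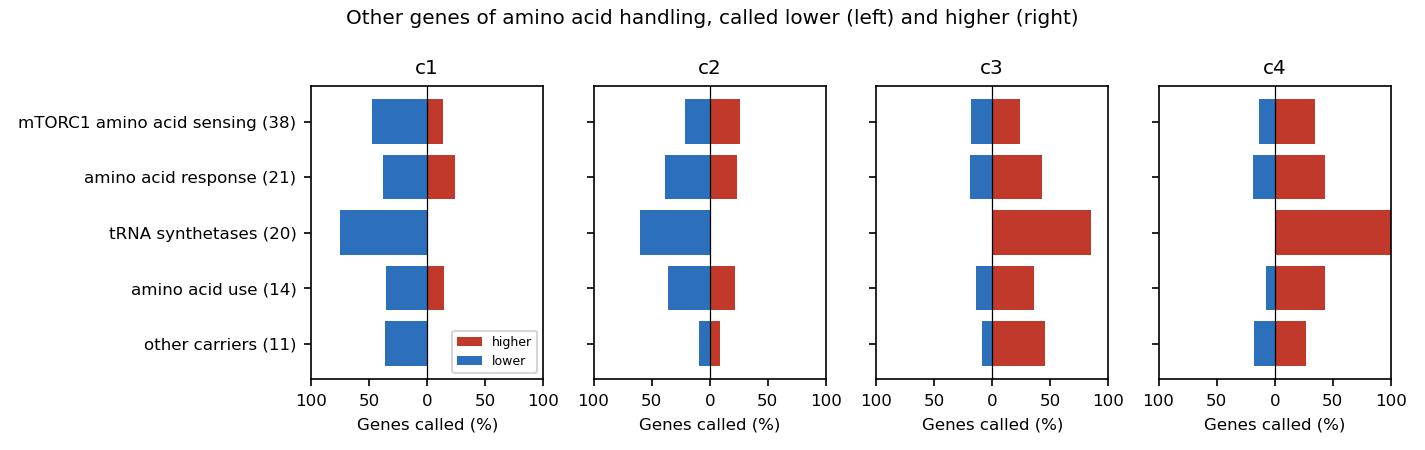
Percentage of the measured genes of 5 lists of amino acid handling called lower (blue, left of 0) and higher (red, right of 0) in clusters c1 to c4, with the number measured in parentheses. The aminoacyl-tRNA synthetases reach 20 of 20 higher in c4 and have 15 of 20 lower in c1.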

How the data were processed

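Cells of 4 samples were profiled by single-cell RNA sequencing. The assay behind the tables, the cell filters, the clustering, the test and the handling of doublets are not stated in the labels. Scanpy, GSNAP, HTSeq and GRCm38.p4 are named in the submitters' processing notes with no role stated. The authors deposited 8 tables of 20062 genes with a log2 mean expression, a log2 fold change limited to -4 and 4, and a p-value with its Benjamini-Hochberg adjustment, which was recomputed to within 4.44e-15. If the unit of these p-values was the cell, they describe these cells and not animals. The deposited log2 mean was the same in all 8 tables, was missing for 8 genes and, raised from log2, summed to 10000. No new test was made.

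Cluster shares were estimated from 990 genes with a log2 mean between -5 and -3, as the weights that make each gene's cluster levels add up to its mean. The level of a cluster was the overall mean times f/(1 + w(f - 1)), with f the fold change and w the share. The deposited c1 against c2 values were rebuilt this way with a median absolute difference of 0.00119 over 4287 genes, and within 0.0115 for the 19 expressed carriers. Levels carry no error, and are compared across clusters only within a gene. The method was tested on simulated data whose fold changes followed the same formula. That test checked the arithmetic and cannot show how the authors averaged their cells. Members and lists were chosen with earlier results of these data known. Named were all expressed carriers, weak ones called in any table, and up to 5 called members per list with large changes, besides Slc38a9, Slc36a1, Atf4, Asns, Mtor and Sesn2; Slc16a10, Slc15a3 and the genes overlapping carriers were named after their values were seen. Gene positions are from GENCODE on GRCm38. Older symbols were matched through RefSeq synonyms, so that Castor1 and Castor2 were read as Gatsl3 and Gatsl2. Python 3.11.15, pandas 2.3.3 and scipy 1.17.1 were used.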

Additional observations from a re-analysis of the deposited data

How the results depend on the processing

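No paired analysis was possible because the tables hold no samples. Counting Slc7a6os as a member (added after the data were seen) and adjusting over expressed genes left all 16 counts of calls within 1.5 times, the rebuilt c1 against c2 values kept the sign of every called carrier, and shares from genes with a log2 mean between -3 and -1 moved the 133 levels by at most 1.83%. At an adjusted p under 0.01 the c5 counts were 1 higher and 1 lower, and no carrier was higher in c6 (0) or lower in c7 (0). With an absolute log2 fold change of at least 0.5, 8 were lower in c1, 3 higher and 3 lower in c2, and 4 lower in c1 against c2. With weak genes included, 7 were higher in c1, 9 lower in c2, 13 higher in c3, 5 lower in c4 and 8 higher in c1 against c2. At or above the 75th percentile of expression, 1 was higher and 4 lower in c1, 3 and 1 in c2, 2 and 1 in c3, 2 and 0 in c4, 0 higher in c5, 6 lower in c6, and 1 higher and 3 lower in c1 against c2. Fewer genes were tested there. At that cut, at 0.01 and at the fold change minimum, the share of all genes was not counted, so these counts have no background. With weak genes included, 34.0% of carriers were lower in c1, beside 29.7% of all genes. Means in place of medians were 0.0020 in c2 (sign reversed from -0.10), 0.31 in c3, -2.17 in c6 and -1.38 in c7. Less the median of all expressed genes, the carriers' median was -0.15 in c1 and -0.14 in c6, and changed sign in c4 (-0.087), c5 (0.056) and c7 (0.14). Depth is unknown, so an uncalled gene is not shown to be equal.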

Other observations

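Genes of glutamine, glutamate, glutathione and branched-chain amino acid use are named here for large called changes. With only 11 of them expressed, the shares given below are not read as a result about the list. Glul, glutamine synthetase, was higher in c1 at 0.64 and c2 at 0.16 and lower in c3 at -0.71, c4 at -0.92, c5 at -1.21, c6 at -2.78 and c7 at -3.76 in the authors' deposited tables. Got2, the mitochondrial aspartate aminotransferase, was higher in c3 at 0.72 and c4 at 0.48 and lower in c1 at -0.24 and c2 at -0.34. Gclm, the modifier subunit of glutathione synthesis, was higher in c1 at 0.32 and lower in c2 at -0.55, with 0.56 in c1 against c2, while Bckdha, a subunit of the branched-chain ketoacid dehydrogenase, was higher in c2 at 0.49 and at -0.42 in c1 against c2. Of the 11 expressed genes of this list of 14, 4 were higher (36.4%, beside 32.5% of expressed genes) and 2 lower in c3, 6 and 1 in c4 (54.5% higher, beside 44.2%), 2 and 4 in c1 (36.4% lower, beside 47.7%), and 3 and 4 in c2 (36.4% lower, beside 31.5%).

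Of 11 other amino acid carriers measured, which the name rule does not take, 5 were called higher and 1 lower in c3, none higher and 4 lower in c1, 1 and 1 in c2, 3 and 2 in c4, 2 and none in c5, 1 and 5 in c6, and none in c7. Of the 8 that were expressed, 4 were higher in c3, beside 32.5% of expressed genes. In c1, 2 of the 8 were lower (25.0%, below the 47.7% of expressed genes) and none higher. In c2, 1 was higher (12.5%, beside 27.1%) and none lower. In c4, 2 were higher (25.0%, beside 44.2%) and 1 lower (12.5%, beside 16.7%). The counts of the 11 in c1, c2 and c4 are thus not read as a result about the list. In c6, 5 of the 8 were lower (62.5%, below the 69.0% of expressed genes) and none was higher. None of the 8 was called in c5 (10.5% of expressed genes higher and 18.5% lower) or in c7 (1.45% and 10.3%). Those called higher in c5 and c6 were thus weak, beside 3.85% and 2.88% of genes below the median. Slc16a10, the aromatic amino acid carrier TAT1, was higher in c3 at 1.05, c4 at 1.53 and c5 at 1.57 and lower in c1 at -1.15 and c2 at -0.76 in the authors' deposited tables. Slc15a3, a lysosomal carrier of histidine and small peptides, was at 3.11 in c5 and at the upper limit of 4 in c6, and lower in c1 at -1.11, c3 at -3.62 and c4 at -1.76. Slc16a10 and Slc15a3 lay below the median mean expression. The mitochondrial aspartate and glutamate carriers Slc25a12 and Slc25a13 were at 0.47 and 0.51 in c3, both called.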
